A study of Homo sapiens with 12 samples.

Results

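The transcripts described here come from 33 genes that are known as transcriptional targets of p53, taken from a list drawn up with earlier results of these data known. In the platform annotation 30 of the 33 had at least 1 probe set that named that gene and no other, and each gene was read from its brightest such probe set, by mean over the 12 arrays. Of these, 28 exceeded log2 4 on at least 3 arrays and were tested, out of 19775 genes with such a probe set and 11184 genes tested. All 28 exceeded log2 4 on all 12 arrays, so none entered through 1 group alone. SPATA18, which encodes a protein of mitochondrial quality control, and EDA2R, a receptor of the tumour necrosis factor family, lay near background on every array, with group means of 2.66 to 2.71 and 2.00 to 2.02. BBC3, BTG2 and FDXR were not analysed here.

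RNA was measured in HK-2 cells, an established, immortalised epithelial line of the human renal proximal tubule, on 12 Affymetrix arrays. Cells near confluence were exposed to Aa at the dose the labels call high, or to vehicle, for 24 h or 48 h, and each of the 4 groups held 3 biological replicates. All groups shared the same medium, which contained EGF, hydrocortisone, insulin, transferrin and selenite. Aa is named in the labels without its dose or identity. The series asked for expression signatures of toxicity.

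p53 is a transcription factor that cells hold at a low level through MDM2, a ubiquitin ligase that p53 itself induces. DNA damage and other stresses stabilise p53, which then binds paired decamer elements near its target genes and raises transcripts that arrest growth, favour cell death, adjust metabolism or feed back on p53. Many of these genes also answer to other regulators. ATF4 and CHOP, the factors of the integrated stress response, are known to induce GDF15, SESN2, PMAIP1 and TNFRSF10B. HK-2 cells were immortalised with papillomavirus genes whose E6 product directs p53 to degradation, so the line is a limited model of this pathway.

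Values are log2 expression, array values are listed in the order of replicates 1, 2 and 3, and changes are Aa minus control at the same time with their standard error. A gene is said to rise or fall where limma gave an adjusted p under 0.05 over all 11184 genes. At 24 h 11 of the 28 genes rose and 6 fell, against 26.3% of all genes tested that rose and 22.8% that fell. At 48 h 13 rose and 7 fell, against 30.6% and 33.9% of all genes. The 17 genes that changed at 24 h were 60.7% of the list beside 49.1% of all genes, and the 20 that changed at 48 h were 71.4% beside 64.5%, so that a large part of the genes in the cell changed as well. The median change was 0.16 at 24 h and 0.18 at 48 h, beside 0.02 and -0.03 over all genes, and values ran from -1.76 to 1.93 at 24 h and from -3.24 to 3.08 at 48 h. The list therefore held strong rises beside strong falls.

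The counts of rises depended on the scaling. When arrays were scaled to the spiked hybridisation controls, the median of all genes moved by -0.29 at 24 h and -0.44 at 48 h, and 6 members rose and 7 fell at 24 h, and 7 rose and 13 fell at 48 h. The falls added by it were those of FAS at 24 h and of FAS, TNFRSF10B, PLK2, FBXO22, NINJ1 and TSKU at 48 h. Under that scaling the share of rises among all genes called was 29.9% at 24 h and 23.2% at 48 h. Under it the falls of CCNG1, ZMAT3 and CYFIP2 and the rises of PMAIP1, PIDD1, AEN and TNFRSF10A kept their direction and their call at both times.

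**Figure D1:**
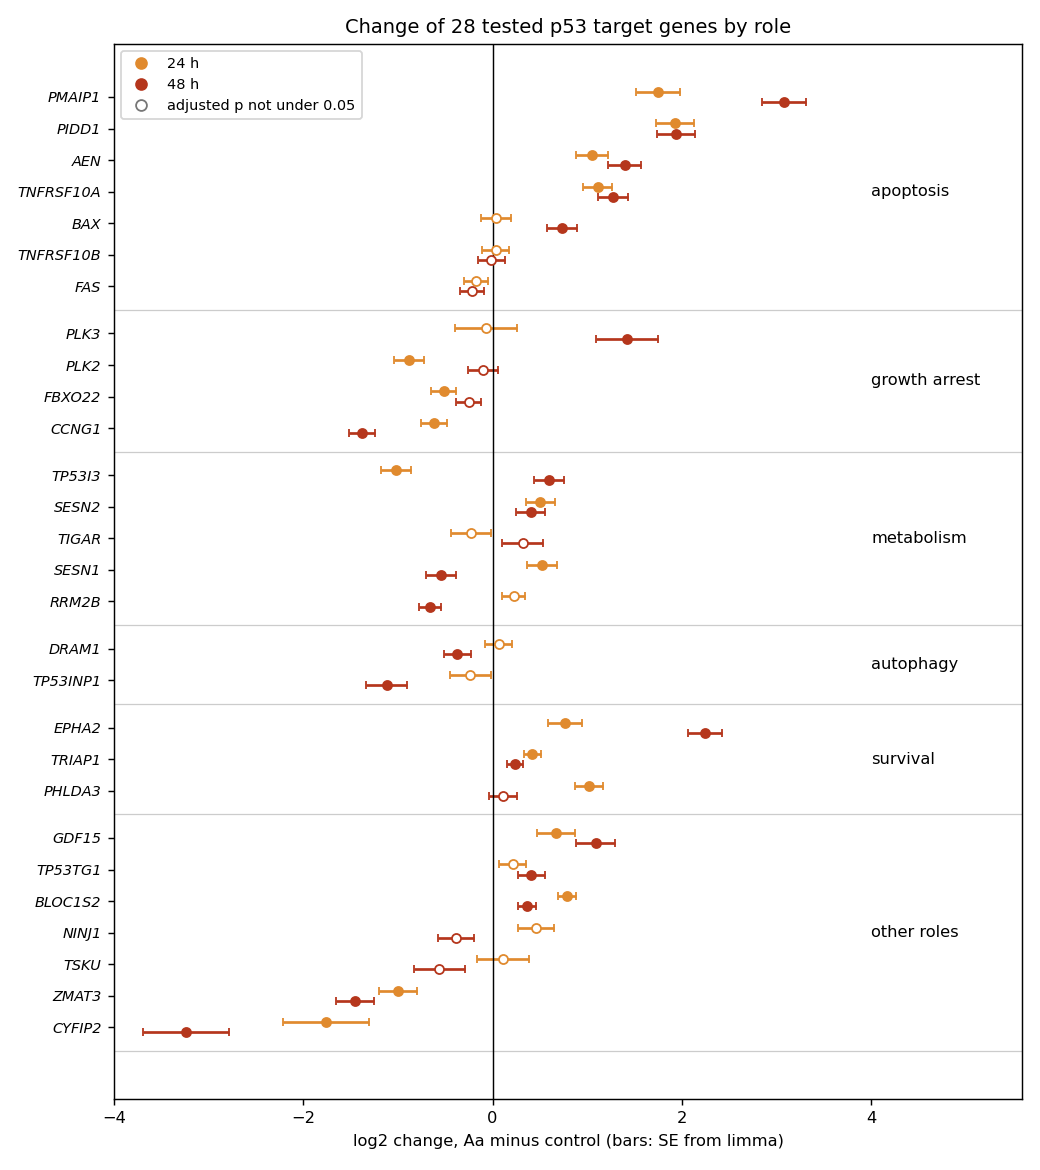
Change of each of the 28 tested genes (log2, Aa minus control) at 24 h and 48 h, grouped by role, where bars are the standard error from limma and open points did not pass an adjusted p of 0.05. The values run from -3.24 for CYFIP2 to 3.08 for PMAIP1, both at 48 h; with scaling to the hybridisation controls the 48 h points of SESN2, TRIAP1, TP53TG1, BLOC1S2, PHLDA3 and TIGAR fall below 0, as do the 24 h points of BAX, TNFRSF10B, RRM2B, TP53TG1, DRAM1 and TSKU.

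A change of at least 1 on the log2 scale, that is at least 2-fold by limma's estimate, was seen upward in 5 members at 24 h and 7 at 48 h, against 10.9% and 14.6% of all genes. Downward it was seen in 2 members at 24 h and 4 at 48 h, against 9.76% and 17.3%. Control and Aa arrays did not overlap in 12 members upward and 6 downward at 24 h, against 30.8% and 29% of all genes. At 48 h this held for 13 members upward and 6 downward, against 33% and 36.1%. The 9 genes that rose at both times were GDF15, TNFRSF10A, SESN2, AEN, TRIAP1, PMAIP1, EPHA2, BLOC1S2 and PIDD1, 32.1% of the members beside 20.1% of all genes. ZMAT3, CCNG1 and CYFIP2 fell at both times, which was 10.7% of the members beside 19.1% of all genes. SESN1 and TP53I3 passed the test in opposite directions at the 2 times, a pattern held by 0.769% of all genes. A further 3 members, PLK2, PHLDA3 and FBXO22, passed at 24 h and not at 48 h (9.13% of all genes), and 6 passed at 48 h and not at 24 h (24.5% of all genes). FAS, TNFRSF10B, TIGAR, NINJ1 and TSKU passed at neither time, 5 members or 17.9% beside 26.4% of all genes.

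Of the 7 tested apoptosis genes 4 rose at 24 h, 5 rose at 48 h and none fell, with median changes of 1.05 and 1.27. Of all genes 26.3% rose and 22.8% fell at 24 h, and 30.6% rose and 33.9% fell at 48 h. PMAIP1 encodes NOXA, a small protein that neutralises the survival factor MCL1. Its values were 9.67, 10.24 and 10.64 in controls and 11.81, 12.02 and 11.96 with Aa at 24 h. At 48 h controls had 9.58, 9.88 and 10.26 and Aa arrays 12.82, 13.02 and 13.13. Every Aa array exceeded every control array, and the 48 h Aa arrays exceeded those of 24 h. The rise was 3.36-fold at 24 h (log2 change 1.75, SE 0.230, adjusted p = 0.000105) and 8.46-fold at 48 h (3.08, SE 0.230, adjusted p = 9.9e-07). The change at 48 h exceeded that at 24 h by 1.33 (SE 0.325, adjusted p = 0.0193).

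PIDD1 encodes a death domain protein that forms the scaffold of a caspase-activating complex. Controls had 4.65, 4.50 and 4.09 at 24 h and 4.97, 4.42 and 5.17 at 48 h, so the gene was close to the filter level without Aa. With Aa the values were 6.35, 6.32 and 6.36 at 24 h and 7.05, 6.75 and 6.57 at 48 h. The groups were clearly apart at both times, and the rise was of nearly equal size, 3.81-fold at 24 h (1.93, SE 0.203, adjusted p = 2.21e-05) and 3.83-fold at 48 h (1.94, adjusted p = 1.1e-05). The difference between times was 0.01 (SE 0.288, adjusted p = 0.984).

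AEN encodes a nuclease that promotes apoptosis. Its control values were 6.62, 6.73 and 6.80 at 24 h and 6.52, 6.72 and 6.68 at 48 h, and its Aa values were 7.71, 7.65 and 7.94 at 24 h and 7.60, 8.33 and 8.18 at 48 h. No Aa array reached down to the control range, and the change was 1.05 at 24 h (2.07-fold, adjusted p = 0.000448) and 1.39 at 48 h (2.63-fold, adjusted p = 3.45e-05), with SE 0.171 at each time. TNFRSF10A, the gene of death receptor DR4 for the ligand TRAIL, had 6.78, 6.96 and 6.88 in controls and 7.86, 8.21 and 7.89 with Aa at 24 h. The 48 h controls had 6.66, 6.92 and 6.75 and Aa arrays 8.18, 8.24 and 7.71. The groups did not overlap at either time, and the gene rose 2.16-fold (1.11, SE 0.155, adjusted p = 0.000155) and 2.41-fold (1.27, SE 0.155, adjusted p = 3.25e-05). Of its other probe sets over the filter, 1 rose by 0.79 and 0.59, and the other had changes of -0.13 and 0.34 that did not pass.

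The related receptor genes did not pass the test in the deposited scaling. TNFRSF10B, which encodes the second TRAIL receptor DR5, had array values between 10.63 and 11.30 and changes of 0.03 (adjusted p = 0.87) and -0.01 (adjusted p = 0.938, and a fall of -0.45 with adjusted p = 0.0401 with hybridisation-control scaling). FAS, the receptor of FAS ligand, lay between 10.42 and 10.98 and changed by -0.17 (adjusted p = 0.283) and -0.22 (adjusted p = 0.158, and 0.0481 with the replicate number as a block). FAS fell at both times with hybridisation-control scaling (-0.46, adjusted p = 0.0282, and -0.66, adjusted p = 0.00252), and its second brightest probe set fell at 48 h (-0.37, adjusted p = 0.0425). BAX, which forms pores in the mitochondrial outer membrane, changed by 0.04 at 24 h (adjusted p = 0.857) and rose 1.66-fold at 48 h (0.73, SE 0.158, adjusted p = 0.00186). At 48 h the controls of BAX had 8.57, 8.50 and 8.95, below the 9.12 to 9.19 of the 24 h controls, and the Aa arrays had 9.37, 9.23 and 9.62. The 48 h value of BAX was 0.29 with hybridisation-control scaling (adjusted p = 0.173). Its difference between times was 0.69 (SE 0.224, adjusted p = 0.0518, and 0.018 with the replicate number as a block).

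Promoter windows from 250 bases before to 50 bases after the transcription start were read from RefSeq (GRCh38.p14) for 22 of the 28 tested members, 32 windows in all. They were searched for the p53 consensus decamer by name, which is its own reverse complement, so that 1 search covers both strands. An exact decamer lay in a window of AEN, FAS, PLK2 and SESN1, 4 of 22 members, beside 7.44% of the 9245 tested genes with a window and 6.63% of all 35116 windows. A pair of exact decamers at most 13 bases apart lay in none of the 22, beside 0.0216% of tested genes. After these matches were seen, a 20-base site of adjoining decamers was searched with mismatches allowed. With at most 2 mismatches it lay in AEN and FAS, beside 0.627% of tested genes. With at most 3 it lay in AEN, FAS, GDF15, PMAIP1 and SESN1, or 22.7% of the 22 members beside 5.69% of tested genes. A match is a description of the letters only, and AEN, GDF15 and PMAIP1 rose at both times while FAS did not pass and SESN1 moved in opposite directions.

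These 5 windows are shown because they held the 20-base site with at most 3 mismatches. The 250 bases before the start are given for AEN (chr15:88621090-88621339, plus strand) and PMAIP1 (chr18:59899746-59899995, plus strand). For FAS (chr10:88991304-88991333, plus strand), SESN1 (chr6:109009013-109009042, minus strand) and GDF15 (chr19:18386178-18386207, plus strand) 30 bases around the match are given. Capitals mark the 20-base site, with 2 mismatches in AEN and FAS and 3 in the others; FAS and SESN1 have 3 windows each.
AEN: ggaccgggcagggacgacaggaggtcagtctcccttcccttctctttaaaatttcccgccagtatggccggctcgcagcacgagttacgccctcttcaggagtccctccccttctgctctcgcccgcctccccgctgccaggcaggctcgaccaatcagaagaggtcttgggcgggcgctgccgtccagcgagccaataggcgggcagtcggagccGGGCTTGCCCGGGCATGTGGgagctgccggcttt
PMAIP1: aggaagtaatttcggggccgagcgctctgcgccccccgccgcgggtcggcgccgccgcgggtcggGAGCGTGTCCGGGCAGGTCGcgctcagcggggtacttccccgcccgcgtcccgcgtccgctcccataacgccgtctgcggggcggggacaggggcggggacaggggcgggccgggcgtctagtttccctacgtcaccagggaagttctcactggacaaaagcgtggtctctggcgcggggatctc
FAS: ctcctGGACAAGCCCTGACAAGCCAagcca
SESN1: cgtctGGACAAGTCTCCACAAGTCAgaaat
GDF15: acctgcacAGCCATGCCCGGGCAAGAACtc

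**Figure D2:**
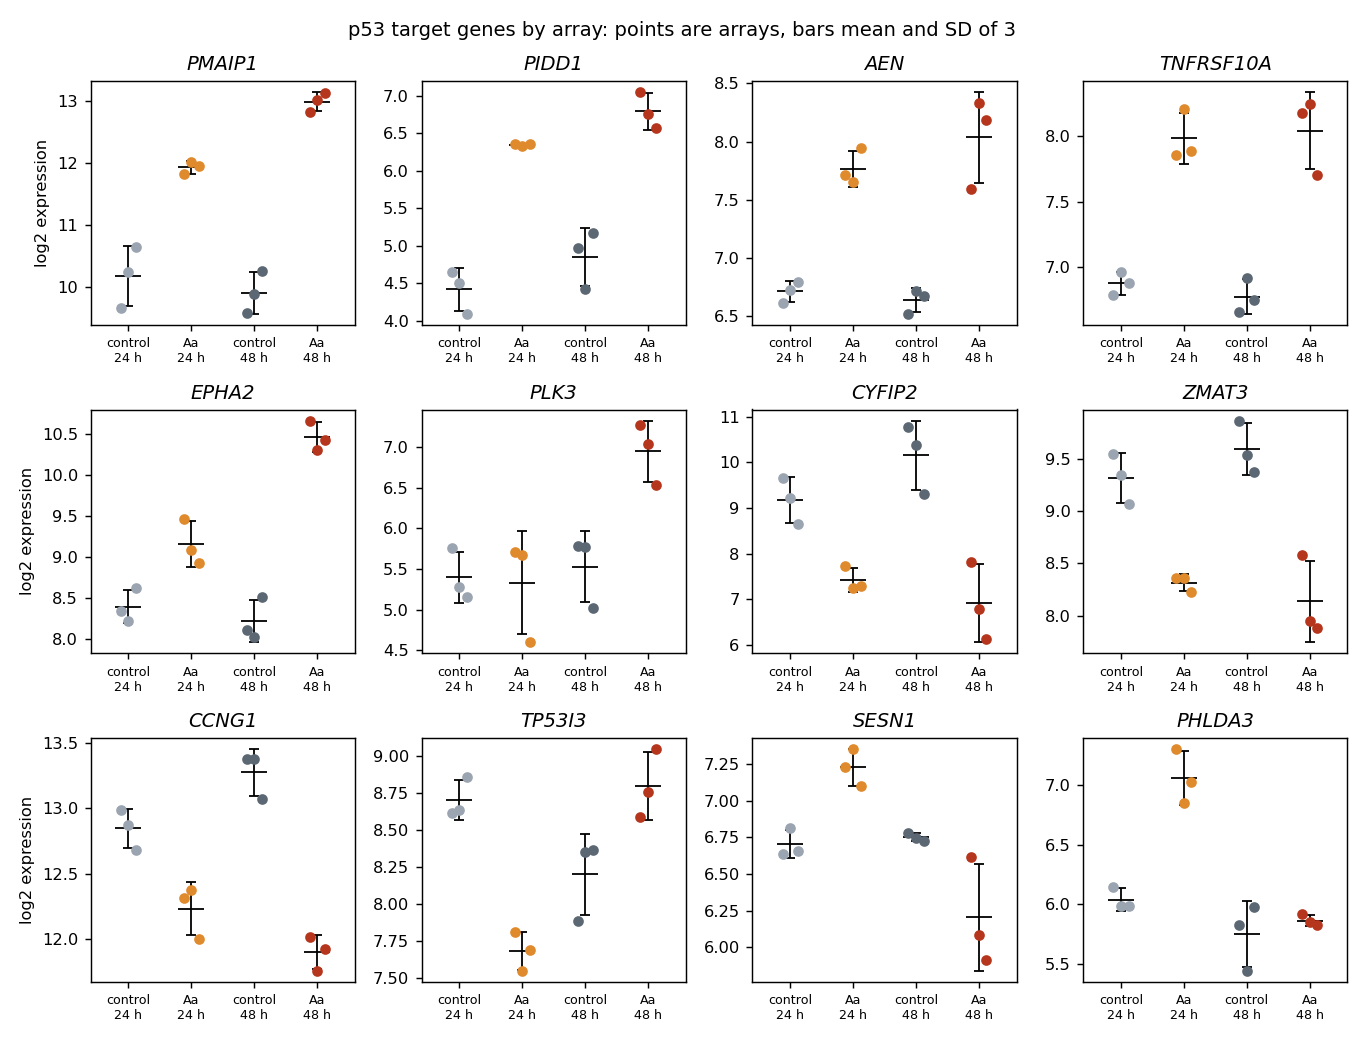
Log2 expression of 12 p53 target genes on each of the 12 arrays, in 4 groups of 3, where points are arrays and the bars give the mean and SD and each panel has its own axis. PMAIP1, PIDD1, AEN and TNFRSF10A lie higher on every Aa array than on any control array of the same time, while CCNG1, ZMAT3 and CYFIP2 lie lower, and TP53I3 and SESN1 change sides between 24 h and 48 h.

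Of 4 tested members with roles in growth arrest and cell cycle control none rose and 3 fell at 24 h, against 26.3% and 22.8% of all genes. At 48 h 1 rose and 1 fell, against 30.6% and 33.9%. The medians were -0.57 and -0.18. CCNG1 encodes cyclin G1, which recruits a phosphatase to MDM2. Its control values were 12.98, 12.87 and 12.68 at 24 h and 13.38, 13.38 and 13.07 at 48 h. With Aa they were 12.32, 12.38 and 11.999 at 24 h and 12.01, 11.76 and 11.93 at 48 h. Aa arrays were lower at both times, and the gap widened. CCNG1 fell by 0.62 on the log2 scale at 24 h (1.53-fold lower, SE 0.139, adjusted p = 0.0036) and by 1.38 at 48 h (2.60-fold lower, adjusted p = 8.3e-06). The difference between times was -0.76 (SE 0.196, adjusted p = 0.0237, and 0.00441 with the replicate number as a block). In fits with no block the call was lost without Aa replicate 1 (adjusted p = 0.0505) or 2 (0.0579) of 24 h, Aa replicate 2 of 48 h (0.0503), control replicate 3 of 24 h (0.0597) and control replicate 1 (0.0549) or 2 (0.0589) of 48 h.

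PLK2 and PLK3 encode polo-like kinases that act in stress checkpoints. PLK2 had 12.06, 12.10 and 12.38 in controls and 11.40, 11.12 and 11.38 with Aa at 24 h. Controls of 48 h had 11.80, 11.75 and 11.996 and Aa arrays 11.71, 11.47 and 12.06. The groups were apart at 24 h and overlapped at 48 h. PLK2 fell by 0.88 at 24 h (SE 0.158, adjusted p = 0.000851) and changed by -0.10 at 48 h (adjusted p = 0.589). Its difference between times was 0.78 (SE 0.224, adjusted p = 0.0348, and 0.00326 with the replicate number as a block). That difference did not pass without Aa replicate 2 of 24 h (adjusted p = 0.0808), Aa replicate 3 of 48 h (0.0642), control replicate 2 (0.0508) or 3 (0.0835) of 24 h, or control replicate 1 (0.0706) or 2 (0.0802) of 48 h, nor with hybridisation-control scaling (0.128) or no filter (0.0615).

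PLK3 had 5.76, 5.28 and 5.15 in controls and 5.71, 5.67 and 4.60 with Aa at 24 h. At 48 h controls had 5.79, 5.77 and 5.02 and Aa arrays 7.27, 7.03 and 6.54, all above the controls. Its change was -0.07 at 24 h (SE 0.329, adjusted p = 0.884), and it rose 2.68-fold at 48 h (1.42, SE 0.329, adjusted p = 0.00291). A further probe set of PLK3 changed by 0.22 and 2.02. The difference between times was 1.49 (SE 0.465, adjusted p = 0.0464, and 0.00143 with the replicate number as a block). It did not pass in 10 of the 12 fits that left out 1 array, with adjusted p from 0.0554 without Aa replicate 2 of 24 h to 0.0978 without control replicate 1 of 24 h; Aa replicate 1 of 24 h and Aa replicate 3 of 48 h were the arrays without which it passed. It also did not pass with equal array medians (adjusted p = 0.059), hybridisation-control scaling (0.0693), no filter (0.107) or a test of all probe sets (0.0535).

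FBXO22, a substrate receptor of a ubiquitin ligase, lay between 9.26 and 9.56 in controls and between 8.86 and 9.00 with Aa at 24 h. It fell by 0.52 (SE 0.130, adjusted p = 0.0066), and its 48 h change of -0.25 did not pass (adjusted p = 0.109, and 0.0143 with the replicate number as a block). Its 3 other probe sets over the filter changed by -0.84, -0.20 and 0.90 at 24 h. The last of these, with a mean of 4.02 over the 12 arrays, rose by 1.80 at 48 h. The mean over the FBXO22 probe sets did not pass at 24 h (adjusted p = 0.361).

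Of 5 tested members with roles in redox, nucleotide and energy metabolism, 2 rose and 1 fell at 24 h, against 26.3% and 22.8% of all genes. At 48 h 2 rose and 2 fell, against 30.6% and 33.9%. TP53I3 encodes a quinone oxidoreductase and moved most between the times. It had 8.62, 8.64 and 8.86 in controls and 7.81, 7.55 and 7.69 with Aa at 24 h, so all Aa arrays were lower. The 48 h controls had 7.88, 8.35 and 8.37 and Aa arrays 8.59, 8.76 and 9.05, so all Aa arrays were higher. TP53I3 fell by 1.02 at 24 h (2.03-fold lower, SE 0.160, adjusted p = 0.000344) and rose by 0.60 at 48 h (1.51-fold, SE 0.160, adjusted p = 0.00696), which with hybridisation-control scaling was 0.16 (adjusted p = 0.398). The difference of 1.62 (SE 0.227, adjusted p = 0.00202) passed in all 12 fits that left out 1 array and with that scaling (adjusted p = 0.00343).

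SESN1 and SESN2 encode sestrins, which restrain mTORC1 and limit oxidative damage. SESN1 had 6.64, 6.82 and 6.66 in controls and 7.23, 7.35 and 7.10 with Aa at 24 h. Controls of 48 h had 6.78, 6.75 and 6.73 and Aa arrays 6.62, 6.09 and 5.91. The Aa arrays lay above the controls at 24 h and below them at 48 h. SESN1 rose by 0.52 at 24 h (SE 0.158, adjusted p = 0.0176) and fell by 0.55 at 48 h (SE 0.158, adjusted p = 0.0106), with a difference of -1.07 (SE 0.224, adjusted p = 0.0102). The rise at 24 h was lost with hybridisation-control scaling (adjusted p = 0.324), and also without Aa replicate 2 (0.0606), control replicate 1 (0.0554) or control replicate 3 (0.0512) of that time. SESN2 lay between 8.19 and 8.37 in controls and 8.55 and 8.89 with Aa at 24 h, and rose by 0.50 (SE 0.155, adjusted p = 0.0192) and by 0.40 at 48 h (adjusted p = 0.0399), where the value with hybridisation-control scaling was -0.04. Its further probe set changed by 0.29 at 24 h and passed at neither time. The 24 h rise of SESN2 was lost with hybridisation-control scaling (0.22, adjusted p = 0.378), as the mean over its probe sets (adjusted p = 0.104) and without Aa replicate 1 (0.0699) or 3 (0.0592) or control replicate 1 (0.0598) or 3 (0.056) of that time. The 48 h rise was lost without 6 of the 12 arrays in turn, namely Aa replicates 1 (0.0692) and 3 (0.132) and control replicates 2 (0.0599) and 3 (0.158) of 48 h and control replicates 1 (0.0512) and 3 (0.0515) of 24 h. It was also lost with no filter (0.0685), as the mean over probe sets (0.371) and in a fit of the 48 h arrays alone (0.086).

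RRM2B encodes a ribonucleotide reductase subunit that supplies nucleotides for DNA repair. Controls had 7.79, 7.73 and 7.93 and Aa arrays 8.04, 8.21 and 7.88 at 24 h, a change of 0.22 that did not pass (adjusted p = 0.143). At 48 h controls had 8.26, 8.02 and 8.10 and Aa arrays 7.43, 7.35 and 7.61, all lower than the controls. RRM2B fell by 0.66 at 48 h (1.58-fold lower, SE 0.118, adjusted p = 0.000515), and the difference between times was -0.88 (SE 0.167, adjusted p = 0.00703). TIGAR, a phosphatase that lowers flux through glycolysis, changed by -0.22 (adjusted p = 0.41) and 0.32 (adjusted p = 0.213, and 0.0217 with the replicate number as a block).

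Both tested autophagy genes fell at 48 h, as did 33.9% of all genes, and neither passed at 24 h. TP53INP1, which promotes autophagy and p53 activity, had 8.70, 8.38 and 8.41 in controls and 8.48, 8.26 and 8.03 with Aa at 24 h. The 48 h controls had 8.55, 8.73 and 8.20 and Aa arrays 7.87, 7.10 and 7.16. The groups overlapped at 24 h and were apart at 48 h, where the gene fell by 1.12 (2.17-fold lower, SE 0.217, adjusted p = 0.000935). Its difference between times was -0.88 (SE 0.307, adjusted p = 0.0662, and 0.0131 with the replicate number as a block). DRAM1, a lysosomal membrane protein, changed by 0.07 at 24 h (adjusted p = 0.732) and fell by 0.37 at 48 h (adjusted p = 0.0377), although the groups overlapped. The DRAM1 call was lost without Aa replicate 1 (adjusted p = 0.0817) or 3 (0.142) or control replicate 1 (0.103) or 2 (0.111) of 48 h, and with quantile normalisation (0.0694), no filter (0.0581) or a fit of the 48 h arrays alone (0.0728).

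The 3 genes that restrain AKT or favour survival rose at 24 h, and 2 of them at 48 h, against 26.3% and 30.6% of all genes. EPHA2 encodes an ephrin receptor tyrosine kinase. Controls had 8.34, 8.22 and 8.62 and Aa arrays 9.47, 9.08 and 8.93 at 24 h. Controls of 48 h had 8.11, 8.03 and 8.51 and Aa arrays 10.67, 10.30 and 10.43. All Aa arrays were above the controls, most widely at 48 h. EPHA2 rose 1.70-fold at 24 h (0.76, SE 0.180, adjusted p = 0.00463, and 0.0522 with hybridisation-control scaling) and 4.76-fold at 48 h (2.25, SE 0.180, adjusted p = 1.57e-06), and the changes differed by 1.49 (SE 0.255, adjusted p = 0.00476).

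PHLDA3 encodes a protein that competes with AKT for membrane lipids. Controls had 6.15, 5.98 and 5.99 and Aa arrays 7.30, 6.85 and 7.02 at 24 h, with no overlap. At 48 h controls had 5.83, 5.45 and 5.98 and Aa arrays 5.92, 5.86 and 5.82, within the control range. PHLDA3 rose 2.02-fold at 24 h (1.02, SE 0.150, adjusted p = 0.000231) and changed by 0.11 at 48 h (adjusted p = 0.533), a difference of -0.90 (SE 0.212, adjusted p = 0.0162). Its further probe set, with a mean of 3.64 over the 12 arrays, changed by 2.46 at 24 h and 1.01 at 48 h (adjusted p = 0.00586 among all probe sets tested), so the return to control level was not shared by both probe sets. TRIAP1, an inhibitor of the apoptosome, rose by 0.42 at 24 h (SE 0.0878, adjusted p = 0.00221, and 0.425 with hybridisation-control scaling) and by 0.24 at 48 h (adjusted p = 0.033), where that scaling gave -0.20. The 48 h call of TRIAP1 was lost without Aa replicate 2 (adjusted p = 0.0691) or 3 (0.102) or control replicate 2 (0.1) or 3 (0.0843) of 48 h, and in a fit of the 48 h arrays alone (0.101).

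Among the 7 genes with other roles, 2 rose and 2 fell at 24 h, against 26.3% and 22.8% of all genes. At 48 h 3 rose and 2 fell, against 30.6% and 33.9%. CYFIP2 encodes a subunit of the WAVE complex, which drives actin branching, and showed the largest fall of the 28 genes at both times. Controls had 9.67, 9.23 and 8.66 at 24 h and 10.78, 10.38 and 9.31 at 48 h, and Aa arrays had 7.72, 7.24 and 7.31 at 24 h and 7.83, 6.79 and 6.14 at 48 h. Aa arrays were lower without overlap. CYFIP2 was 3.39-fold lower at 24 h (-1.76, SE 0.455, adjusted p = 0.00783) and 9.42-fold lower at 48 h (-3.24, SE 0.455, adjusted p = 9.46e-05), and the difference of -1.47 had an adjusted p of 0.128 (0.00796 with the replicate number as a block). Its further probe set changed by -1.15, which did not pass, and -2.97.

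ZMAT3 encodes a zinc finger protein that binds RNA and regulates splicing. Controls had 9.54, 9.34 and 9.07 and Aa arrays 8.36, 8.36 and 8.22 at 24 h. The 48 h controls had 9.87, 9.54 and 9.38 and Aa arrays 8.59, 7.95 and 7.88. Every Aa array was lower, and ZMAT3 fell by 1.00 (2.00-fold lower, SE 0.199, adjusted p = 0.0017) and by 1.46 (2.75-fold lower, SE 0.199, adjusted p = 7.73e-05). Its 4 other probe sets over the filter changed by -0.18 to -1.12 at 24 h and by -0.97 to -2.08 at 48 h.

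GDF15 encodes a secreted factor of the TGF-beta superfamily that circulates at higher levels under many stresses. Controls had 10.26, 10.57 and 10.46 and Aa arrays 11.32, 11.26 and 10.72 at 24 h. Controls of 48 h had 11.36, 10.83 and 11.45 and Aa arrays 12.47, 12.39 and 12.06. Aa arrays were higher at both times, and the controls were themselves higher at 48 h. GDF15 rose 1.59-fold (0.67, SE 0.204, adjusted p = 0.0183) and 2.13-fold (1.09, SE 0.204, adjusted p = 0.000728). The 24 h call was lost with hybridisation-control scaling (adjusted p = 0.144), as the mean over its probe sets (0.0626) and without Aa replicate 1 (0.0721), Aa replicate 2 (0.0624) or control replicate 1 (0.0671) of 24 h. The other probe sets in that mean were not over the filter, with means of 2.50 and 2.02 over the 12 arrays. The probe set used carries the manufacturer's mark for probes that may also bind other transcripts.

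BLOC1S2, a subunit of a complex that serves lysosome-related organelles, rose 1.73-fold at 24 h (0.79, SE 0.0966, adjusted p = 6.22e-05) and 1.29-fold at 48 h (0.36, adjusted p = 0.00683), where hybridisation-control scaling gave -0.08. The long noncoding RNA TP53TG1 changed by 0.21 at 24 h (adjusted p = 0.248) and rose by 0.41 at 48 h (adjusted p = 0.0273), where that scaling gave -0.03. The TP53TG1 call was lost without Aa replicate 1 (adjusted p = 0.0516) or 3 (0.104) or control replicate 2 (0.0665) or 3 (0.0619) of 48 h, and in a fit of the 48 h arrays alone (0.0757). NINJ1, which takes part in adhesion and membrane rupture, changed by 0.46 and -0.39 (adjusted p = 0.0703 and 0.102, and 0.00576 and 0.011 with the replicate number as a block). TSKU, a secreted leucine-rich protein, lay between 4.26 and 5.97 on all arrays and changed by 0.11 and -0.56 (adjusted p = 0.76 and 0.0933).

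**Figure D3:**
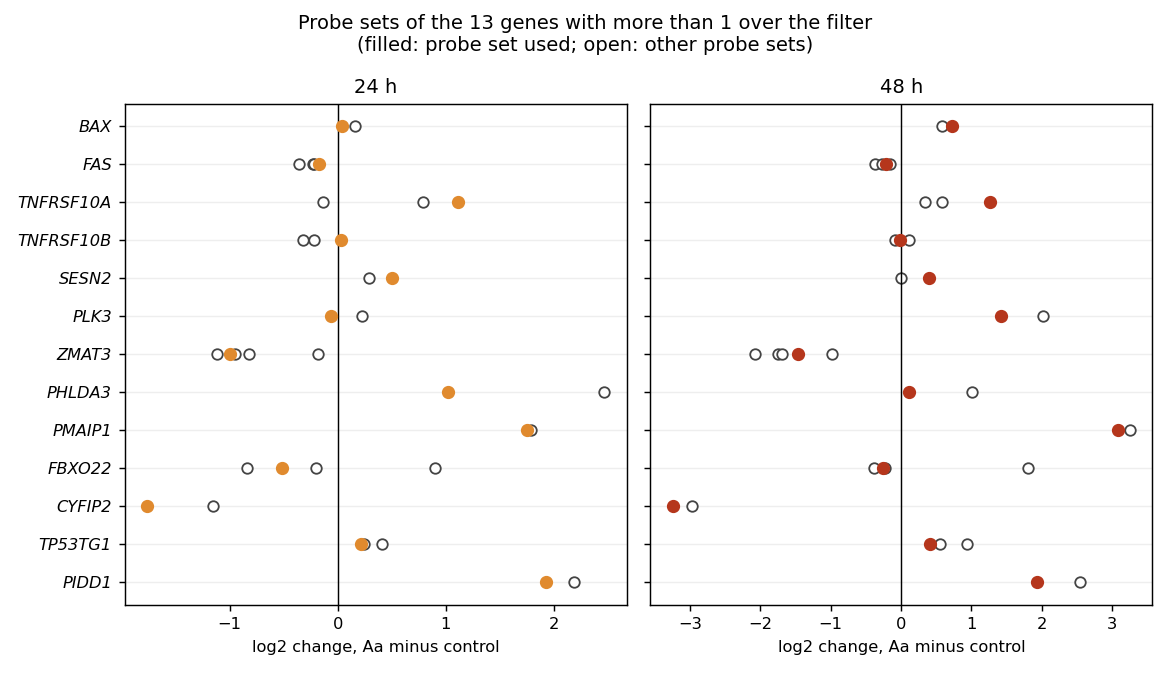
Change (log2, Aa minus control) at 24 h and 48 h of every probe set over the filter for the 13 genes with more than 1, where filled points are the probe sets used and open points the others. Of the 23 other probe sets 18 had the sign of the one used at 24 h and 20 at 48 h. The widest disagreement in sign is 1 probe set of FBXO22, at 0.90 and 1.80, whose mean over the 12 arrays was 4.02. With the same sign, PHLDA3 had 1.02 and 2.46 at 24 h.

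The comparison of the 2 times was tested in the same model. The change at 48 h exceeded that at 24 h in 5 members, PLK2, PLK3, TP53I3, PMAIP1 and EPHA2, against 6.8% of all genes. It was below it in 4, SESN1, RRM2B, PHLDA3 and CCNG1, against 12.7% of all genes. With the replicate number as a block these counts were 7 and 9, against 15.4% and 23.1% of all genes. Without the block the difference did not pass for FBXO22, called at 24 h only, or for BAX, TP53INP1, TP53TG1 and DRAM1, called at 48 h only. The median size of the difference, signs disregarded, was 0.61 over the members and 0.37 over all genes. Between control cells of 48 h and 24 h limma called 0 members, against 0.277% of all genes upward and 0.358% downward, and 4 members upward and 3 downward had an unadjusted p under 0.05, against 8.1% and 9.01% of all genes. With the block 3 control values rose with time, GDF15 by 0.78, CCNG1 by 0.43 and CYFIP2 by 0.97, and 3 fell, BAX by 0.48, TP53I3 by 0.50 and TIGAR by 0.54, against 6.65% and 8.27% of all genes. The Aa arrays of TIGAR had a mean of 9.72 at each time.

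Other genes of the pathway were taken from further lists. CDKN1A, the cyclin-dependent kinase inhibitor p21 and the best known p53 target, rose 3.08-fold at 24 h (1.62, adjusted p = 0.000113) and 3.90-fold at 48 h (1.96, adjusted p = 1.54e-05). MDM2 did not pass at 24 h (0.22, adjusted p = 0.226) and fell by 0.54 at 48 h (adjusted p = 0.0055), and the mean over its probe sets had adjusted p of 0.0317 and 0.432 in place of these. GADD45A, a growth arrest gene, rose 3.61-fold and 7.97-fold. In all, 14 of 32 tested p53 targets outside the 28 members rose and 1 fell at 24 h (median 0.35), against 26.3% and 22.8% of all genes. At 48 h 12 rose and 5 fell (median 0.20), against 30.6% and 33.9%. TNFRSF10D, a decoy receptor of TRAIL, rose by 1.80 and 3.57, IER5 by 1.34 and 3.12, while ASCC3, a helicase gene, fell by 1.78 and 2.38. On their second brightest probe sets ASCC3 had -0.27 (adjusted p = 0.552) and -0.62 (adjusted p = 0.134), and TNFRSF10D had 0.66 at 24 h (adjusted p = 0.0649).

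Of 25 tested regulators of p53, 5 rose and 3 fell at 24 h, and 3 rose and 9 fell at 48 h. Of all genes 26.3% rose and 22.8% fell at 24 h, and 30.6% rose and 33.9% fell at 48 h. PPM1D, a phosphatase that switches the p53 response off, rose by 1.12 at 24 h and changed by 0.22 at 48 h (adjusted p = 0.139), a value that hybridisation-control scaling turned to -0.23. PPM1D passed upward at 48 h with the replicate number as a block (adjusted p = 0.0203), as the mean over its probe sets (0.50, adjusted p = 0.00365) and on its second brightest probe set (0.78, adjusted p = 0.00179). Of 20 cell cycle genes lowered through p53, CDKN1A and the DREAM complex, 9 fell and none rose at 24 h (median -0.28). At 48 h 5 fell and 8 rose (median -0.11). The shares of all genes given above for the regulators stand beside these counts too. CCNB1, cyclin B1, fell by 1.39 and 0.46, and CENPE by 1.52 and 0.81, while AURKB changed by 0.20 at 24 h and rose by 1.33 at 48 h. In control cells all of these 20 genes had lower values at 48 h than at 24 h, from -0.96 to -0.26 (median -0.62). Of these falls 3 passed the test, against 0.358% of all genes.

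Of the 4 tested members that are also ATF4 or CHOP targets, GDF15, SESN2 and PMAIP1 rose at both times and TNFRSF10B did not pass. Of all genes 20.1% rose at both times. Among 16 tested ATF4 and CHOP targets outside the members, 9 rose and 2 fell at 24 h, against 26.3% and 22.8% of all genes. At 48 h 7 rose and 5 fell, against 30.6% and 33.9%. ATF3 rose by 5.30 and 6.87 and STC2, a secreted glycoprotein, by 3.35 and 3.46, while DDIT4, an inhibitor of mTORC1, fell by 1.41 and 2.53. The second brightest probe set of STC2 had 0.48 at 24 h (adjusted p = 0.0747). The part of this response in the members' changes was not tested.

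Members that rose had shorter gene spans than those that fell, a relation that held over all genes as well. The median span in the RefSeq table was 13.4 kb for the 11 members that rose and 29.4 kb for the 6 that fell at 24 h, and 10.3 kb and 46.0 kb at 48 h. Over all genes it was 24.6 kb for rises and 65.6 kb for falls at 24 h, and 20.7 kb and 63.0 kb at 48 h. Spearman's rho between span and change was -0.31 at 24 h and -0.49 at 48 h over the 28 members, and -0.25 and -0.37 over 11178 genes. These are descriptions across genes of the same 12 arrays, since genes are not independent replicates. CYFIP2 spans 129 kb, ZMAT3 55.3 kb and PMAIP1 4.31 kb, whereas SESN1, at 111 kb, rose at 24 h and fell at 48 h.

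**Figure D4:**
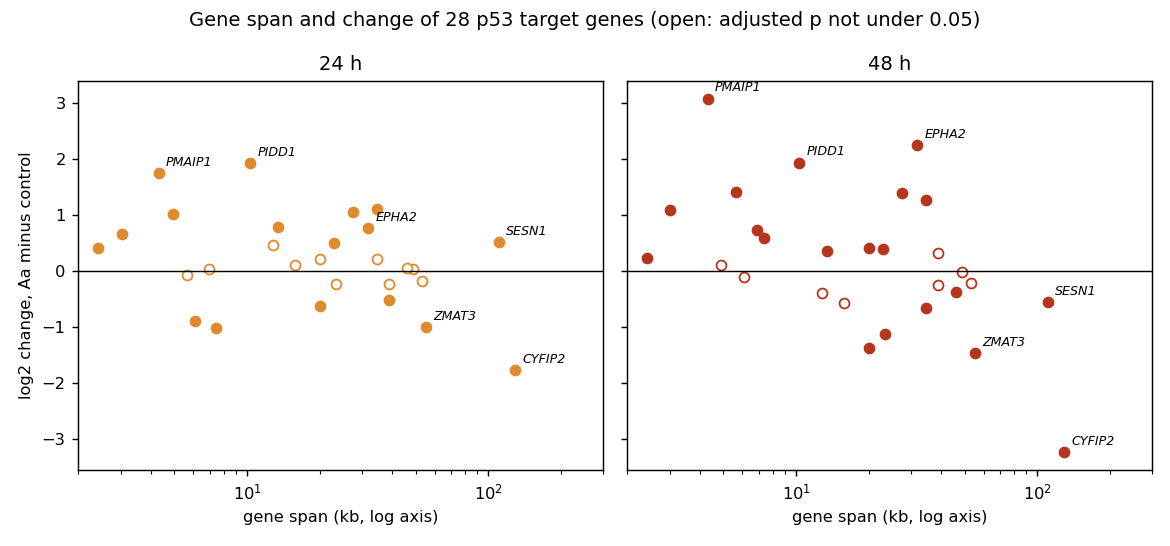
Gene span in RefSeq (kb, log axis) against the change of the 28 tested genes (log2, Aa minus control) at 24 h and 48 h, where open points did not pass an adjusted p of 0.05. The longest gene, CYFIP2 at 129 kb, has the largest fall, and PMAIP1 at 4.31 kb has the largest rise at 48 h.

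Over all probe sets the correlation within a group was 0.994 to 0.997, and that between Aa and control arrays 0.949 to 0.976. A 3 prime minus 5 prime value of the ACTB and GAPDH control probe sets, a sign of RNA quality, was 0.31 and 0.32 in controls and 0.39 (24 h) and 0.54 (48 h) with Aa. The labelled cell type was checked by markers: SLC3A1, SLC4A4, PAX8 and DPP4 were over the filter, while 8 of 12 measured markers, among them CUBN, LRP2, AQP1 and SLC34A1, were near background on all arrays. The summed level of these markers above log2 4 ran from 26.0 to 30.1 on control arrays and from 20.2 to 24.6 on Aa arrays. All 6 epithelial markers were expressed, with sums of 40.7 to 43.7 in controls and 37.8 to 41.4 with Aa. Of these 6, 0 rose and 3 fell at 24 h, against 26.3% and 22.8% of all genes. At 48 h 2 rose and 3 fell, against 30.6% and 33.9%. Of 5 fibroblast markers COL1A1, DCN and LUM were over the filter, with sums of 17.1 to 18.9 in controls and 15.7 to 17.7 with Aa, and PDGFRB and COL3A1 were near background, as were all 4 leukocyte markers. SLC12A1 and PODXL, of 6 measured distal nephron and podocyte markers, and TEK, of 5 endothelial markers, were over the filter. Their levels were close to log2 4. PODXL, with control means of 4.57, fell by 1.09 at 24 h (adjusted p = 0.0152) and 0.99 at 48 h (adjusted p = 0.0181). The part of RNA quality and of marker levels in the members' changes was not tested. In bulk RNA fewer expressing cells and less RNA per cell cannot be told apart.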

How the data were processed

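Total RNA from HK-2 cells was labelled as biotinylated cRNA and hybridised to Affymetrix arrays, per the labels' protocols. The authors deposited log2 expression per probe set, computed with GCRMA (version not stated) per the submitters' processing notes. GCRMA corrects background by probe sequence, normalises between arrays and summarises probe sets, which can hide a shift common to most transcripts. Array medians lay between 2.91 and 3.02.

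Of 54675 probe sets, 62 were manufacturer's controls, 41091 named 1 gene, 1801 several and 11721 none in the annotation given. Each of 19775 genes was represented by its highest-mean probe set, and 11184 were over log2 4 on at least 3 of 12 arrays. Changes were fitted with limma 3.58.1 in R 4.3.3 (lmFit, eBayes) as 4 group means over all 12 arrays, with Benjamini-Hochberg adjustment over all genes and a threshold of 0.05. Every adjusted p is from limma. The number of arrays limits the precision: the median standard error was 0.161, and 0.227 for the difference between times. The fit was tested on simulated data with independent noise on each array and few changed genes. That test therefore did not cover the pairing described below.

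Replicate numbers paired the arrays: deviations from group means correlated at 0.279 to 0.577 for all 18 same-numbered pairs and at -0.371 to -0.0286 for the 36 others. Deviations cancel out within a group by construction, so positive same-numbered pairs make the others negative on average. The sign of the 36 is therefore no separate evidence of pairing. No source used here says what same-numbered samples shared. Named genes with every array's value had an adjusted p under 0.05 with a change of at least 1 or a difference between times. CDKN1A, MDM2 and GADD45A were named whatever their values, and of each other list at most the 2 largest rises and 2 largest falls that passed at each time. The members and lists were chosen with earlier results of these data known. Alternatives changed the scaling, filter, probe set, model, threshold and arrays included.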

Additional observations from a re-analysis of the deposited data

Results flagged for a closer look

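The results below stand out because the change at 48 h differed from that at 24 h in limma's test of that difference; values are the 48 h change minus the 24 h change on the log2 scale, over 12 arrays.

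Among the members the difference was positive for TP53I3 (1.62, adjusted p = 0.00202), PLK3 (1.49, adjusted p = 0.0464), EPHA2 (1.49, adjusted p = 0.00476), PMAIP1 (1.33, adjusted p = 0.0193) and PLK2 (0.78, adjusted p = 0.0348). It was negative for SESN1 (-1.07, adjusted p = 0.0102), PHLDA3 (-0.90, adjusted p = 0.0162), RRM2B (-0.88, adjusted p = 0.00703) and CCNG1 (-0.76, adjusted p = 0.0237).

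Among other genes of the pathway it was positive for IER5 (1.78, adjusted p = 0.00225), TNFRSF10D (1.77, adjusted p = 0.000206) and GADD45A (1.14, adjusted p = 0.00985). It was negative for CREBBP, a coactivator of p53 (-1.19, adjusted p = 0.0141), PPM1D (-0.90, adjusted p = 0.0071) and MDM2 (-0.76, adjusted p = 0.0243). The MDM2 call was lost without Aa replicate 1 (adjusted p = 0.053) or 2 (0.0592) or control replicate 2 (0.0507) of 24 h, and without Aa replicate 2 (0.051) or 3 (0.0555) or control replicate 1 (0.0549) or 2 (0.0542) of 48 h. With the replicate number as a block MDM2 had an adjusted p of 0.00639. As the mean over its probe sets MDM2 had a difference of -0.27 that did not pass (adjusted p = 0.0802). The cell cycle genes AURKB (1.12, adjusted p = 0.0229), CCNB1 (0.93, adjusted p = 0.00511) and CENPE (0.71, adjusted p = 0.01) had positive differences. Their controls changed by -0.76, -0.65 and -0.60 from 24 h to 48 h. Aa means went from 10.29 to 10.66, from 11.30 to 11.58 and from 8.11 to 8.22. The AURKB difference did not pass without Aa replicate 2 of 24 h (adjusted p = 0.0563), control replicate 3 of 24 h (0.0554) or Aa replicate 3 of 48 h (0.0533). With the replicate number as a block it passed (adjusted p = 0.00224). The differences of PPM1D (adjusted p = 0.122), CREBBP (0.0961) and CCNB1 (0.0787) did not pass on the second brightest probe set, nor that of CENPE with hybridisation-control scaling (0.0556). Of the ATF4 and CHOP targets, ATF3 had 1.57 (adjusted p = 0.04), VLDLR -1.17 (adjusted p = 0.0153) and SLC7A11 -2.40 (adjusted p = 0.00587). ATF3 did not pass in 9 of the 12 fits without 1 array, with adjusted p from 0.0502 to 0.0914. Nor did ATF3 pass with hybridisation-control scaling (adjusted p = 0.0557) or no filter (0.0938). It passed without Aa replicate 2, control replicate 1 or control replicate 3 of 48 h, and with the replicate number as a block (adjusted p = 0.0129).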

How the results depend on the processing

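Equal array medians, quantile normalisation, a filter at log2 5, a floor at log2 4, testing all probe sets, trend and robust moderation and the 6 arrays of one time kept each count of members within 1.5 times that reported. Only the 6 arrays of one time could give no value for the difference between times or for controls. Scaling to the hybridisation controls gave 6 members higher at 24 h, 7 higher and 13 lower at 48 h, 3 with a larger change at 48 h, 6 lower in controls, and medians of -0.12 and -0.27. No filter gave 3 members with a larger change and a 48 h median of 0.074. An adjusted p under 0.01 left 2 with a larger and 1 with a smaller change, and the mean over probe sets gave 7 with a smaller change. On the probe set of second highest mean the 24 h calls of SESN2 (adjusted p = 0.376), FBXO22 (0.203) and CYFIP2 (0.153) were lost. At 48 h FAS (0.0425) and PHLDA3 (0.00577) gained a call on it, and SESN2 lost its call (0.997). Over all settings that kept every array or left out a whole time, 4 to 7 members fell at 24 h. With the replicate block, whose numbers paired the arrays, 9 members had a smaller change, and 3 rose and 3 fell between control times. For Aa minus control 12 members rose and 6 fell at 24 h with it, against 32.5% and 29.1% of all genes. At 48 h 14 rose and 10 fell, against 35.3% and 38%. The calls of GDF15, SESN1 and SESN2 at 24 h and of SESN2, TRIAP1, TP53TG1 and DRAM1 at 48 h passed with the block. Fits that left out 1 array had no block. Leaving out 1 array gave 3 to 6 members with a larger and 3 to 7 with a smaller change, 24 h medians of 0.13 to 0.25 and 48 h medians of 0.083 to 0.22.

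Signs turned in 41 values, mostly of genes that had not passed. With hybridisation-control scaling these were, at 24 h, BAX -0.24, TNFRSF10B -0.25, RRM2B -0.061, TP53TG1 -0.070, DRAM1 -0.22, TSKU -0.17, MDM2 -0.067, AURKB -0.078 and SLC7A11 -0.050. At 48 h they were SESN2 -0.037, PHLDA3 -0.33, TIGAR -0.12, TRIAP1 -0.20, TP53TG1 -0.030, BLOC1S2 -0.079 and PPM1D -0.23. With the mean over probe sets they were TNFRSF10B -0.14, PLK3 0.046, CREBBP 0.038 and AURKB -0.16 at 24 h and TNFRSF10B 0.0055 and FBXO22 0.17 at 48 h. With the probe set of second highest mean they were TNFRSF10B -0.22, PLK3 0.22, CREBBP 0.26 and AURKB -0.53 at 24 h and SESN2 -0.0012 at 48 h. Quantile normalisation gave TNFRSF10B 0.062 at 48 h. Leaving out each array in turn gave ranges across 0 at 24 h for BAX (-0.094 to 0.15), TNFRSF10B (-0.018 to 0.087), PLK3 (-0.26 to 0.30), DRAM1 (-0.0059 to 0.18), TSKU (-0.023 to 0.28) and CREBBP (-0.23 to 0.031), and at 48 h for TNFRSF10B (-0.12 to 0.14), PLK2 (-0.26 to 0.035) and PHLDA3 (-0.041 to 0.23). The cause was not tested. Signal near background limits TSKU, PLK3 and PIDD1 most.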
